A study of Mus musculus with 18 samples.

Results

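Interferon response genes are the genes a cell switches on after an interferon has bound its receptor, and 40 of them are described here across fat and liver. They were chosen by symbol from a fixed list, which was drawn up with earlier results of these data known. The Ensembl identifiers of the deposited files were matched to GENCODE M21, and all 40 were found among the 22298 gene identifiers of the series. Of these, 39 are annotated as protein coding, and Mx2 is annotated as a polymorphic pseudogene. By role they fall into 3 transcription factors, 4 IFIT proteins, 5 oligoadenylate synthetase family genes, 4 sensors of foreign nucleic acid, 4 genes of the ISG15 system, 3 genes of ADP-ribosylation, 4 large GTPases, 10 other effectors and 3 genes of antigen processing.

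RNA was sequenced from 3 tissues of C57BL/6 mice aged 12 weeks, namely eWAT (the epididymal fat pad), iWAT (the inguinal one) and liver. The group called WT is labelled Bckdhaf/f, a floxed Bckdha gene with no Cre, and the group called KO is labelled Bckdhaf/f;RIP-Cre. Bckdha encodes a subunit of the enzyme complex that breaks down branched-chain ketoacids, and RIP-Cre commonly names Cre recombinase driven by the rat insulin promoter, a driver active in beta cells of the pancreas and also in certain neurons. The floxed allele was thus present in both groups, and no group had RIP-Cre alone, so an effect of Cre itself cannot be told apart from that of the deletion. Each of the 6 groups held 3 libraries, 18 in all. The labels do not say that the 3 came from separate animals, so every p-value below measures no more than how far these libraries differ among themselves, part of which may be technical.

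Type I interferons bind the receptor pair IFNAR1 and IFNAR2, and the kinases JAK1 and TYK2 then set off the complex ISGF3, which contains STAT2 and IRF9. It binds the interferon-stimulated response element (ISRE) in promoters, while interferon gamma works mainly at the gamma-activated site (GAS). Most cells of fat and liver express a low tonic level of these genes, and the products sense viral RNA, cut it, block its translation or hold virions at the membrane.

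A pair of sequence patterns was searched for in the RefSeq promoters of build GRCm38.p6, from 250 bases before to 50 after each start. The ISRE pattern is GAAA, then any 2 bases, then GAAA again. On either strand and with overlapping matches allowed, it was found in 14 of the 30 members that had a promoter entry (46.7%) and in 3.99% of the 27025 genes in the table. The GAS pattern TTCNNNGAA was found in 6 of those 30 members (20%) and in 9.55% of all genes. The 14 members with the ISRE pattern were Bst2, Ddx58, Eif2ak2, Gbp2, Gbp3, Ifih1, Ifit1, Ifit3, Ifit3b, Isg15, Oas1a, Oas3, Rsad2 and Stat2. No match was found in these windows for Dtx3l, Irf7, Oasl1 or Oasl2, although Oasl2, Oasl1 and Dtx3l had the lowest genotype p-value of the members in eWAT, iWAT and liver in turn. Such a match describes letters in a window and does not show binding. The windows below are 60 bases long, lie wholly before the start and outside annotated exons, read 5′ to 3′ on the gene's strand, and carry the ISRE matches in capitals. They are shown because they let the ISRE be compared between members of the ISG15 system, the IFIT and OAS families, the other effectors and the transcription factors.
Isg15, chr4:156200856-156200915, minus strand: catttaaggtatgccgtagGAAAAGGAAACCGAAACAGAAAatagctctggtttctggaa
Ifit1, chr19:34640779-34640838, plus strand: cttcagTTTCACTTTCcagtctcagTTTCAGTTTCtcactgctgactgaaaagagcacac
Oas1a, chr5:120907526-120907585, minus strand: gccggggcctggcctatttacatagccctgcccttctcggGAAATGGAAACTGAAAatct
Oas3, chr5:120777700-120777759, minus strand: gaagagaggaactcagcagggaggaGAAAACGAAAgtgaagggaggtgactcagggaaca
Rsad2, chr12:26456538-26456597, minus strand: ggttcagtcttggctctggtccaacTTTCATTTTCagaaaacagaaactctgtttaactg
Bst2, chr8:71537565-71537624, minus strand: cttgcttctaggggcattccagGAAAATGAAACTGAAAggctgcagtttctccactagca
Stat2, chr10:128270251-128270310, plus strand: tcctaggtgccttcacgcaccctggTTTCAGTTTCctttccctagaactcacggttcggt
The runs in Isg15, Oas1a and Bst2 consist of overlapping matches, 3 in Isg15 and 2 in each of the others, whereas Ifit1 has 2 separate ones. In Isg15 the run begins 78 bases before the start, in Oas1a 20 and in Rsad2 120.

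The 40 genes lie on 14 chromosomes, and several are neighbours (coordinates of GENCODE M21 on GRCm38, which is mm10). Ifit2, Ifit3, Ifit3b and Ifit1 follow each other on chromosome 19 between 34550694 and 34650009. Parp14, Dtx3l and Parp9 lie side by side on chromosome 16 between 35832874 and 35972605, and Psmb9, Tap1 and Psmb8 on chromosome 17 between 34181987 and 34201454. Dtx3l and Parp9 start head to head on opposite strands and share 682 bases including exons, and Psmb9 and Tap1 share 212. Irf7 overlaps exons of Phrf1 and Irf9 exons of Rnf31. The sources do not say whether the kit kept the strand, so reads in such overlaps cannot be assigned with certainty, and Ifit3 and Ifit3b are near-identical copies whose counts depend on how shared reads were split.

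All values are expected counts turned into counts scaled to depth (CPM) with TMM scaling within the 6 libraries of a tissue, unless stated otherwise. Total expected counts ran from 16796147 to 28039742 per library. Bckdha stood at 52.9 to 348 CPM in WT and 103 to 160 in KO eWAT, at 119 to 232 and 117 to 261 in iWAT, and at 194 to 232 and 179 to 241 in liver, with overlapping groups in each tissue. The cells in which the insulin promoter is active were not profiled, so this does not check the labels. The library eWAT WT 2 goes against its tissue label. The 6 adipocyte markers summed to 126 CPM there (scaled over all 18 libraries) and to between 7726 and 32044 in the other 5 eWAT libraries, and its 5 epididymis markers summed to 41992 CPM. Of these markers Crisp1 alone was high in KO 1 and KO 3 (1080 and 1234 CPM), while Gpx5 stood below the 21.4 CPM of WT 1 in both. In iWAT, 6 B cell markers summed to 5.40 CPM in WT 2 and to 323 to 1227 in the other 5 libraries. Results on eWAT and iWAT are therefore given with and without those libraries where it matters.

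In iWAT nearly the whole set stood higher in KO. In eWAT and in liver 27 of 40 members did, and in liver Dtx3l had the lowest p. No member passed the edgeR test in any tissue on its own, at an adjusted p under 0.05 over all genes tested. That count of 0 stands beside 0% of 14657 genes called in eWAT, 0% of 14226 in iWAT and 0.0504% of 11915 in liver. All 40 members passed the filter on low counts in each tissue. Because the list was drawn up with earlier results known, the counts and shares below describe the set and do not test it. In iWAT 39 of 40 had a positive log2 fold change (KO minus WT) against 52% of all genes, and their median was 0.63 against 0.01 over all genes. In eWAT 27 of 40 were positive against 48.5%, with a median of 0.25 against -0.02, and in liver 27 of 40 against 49.7%, with a median of 0.14 against 0.00. At an unadjusted edgeR p under 0.05, 13 members were higher in iWAT (1.43% of all genes), 5 in eWAT (3.4%) and 4 in liver (3%), and none was lower in any tissue (3.49% of all genes in eWAT, 2.99% in iWAT and 3.26% in liver). DESeq2 called Oasl1 in iWAT, Dtx3l in liver and no member in eWAT, and limma-voom called none in any tissue. The share of all genes that DESeq2 called is not given here or below. Its calls therefore cannot be weighed against the edgeR shares.

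**Figure D1:**
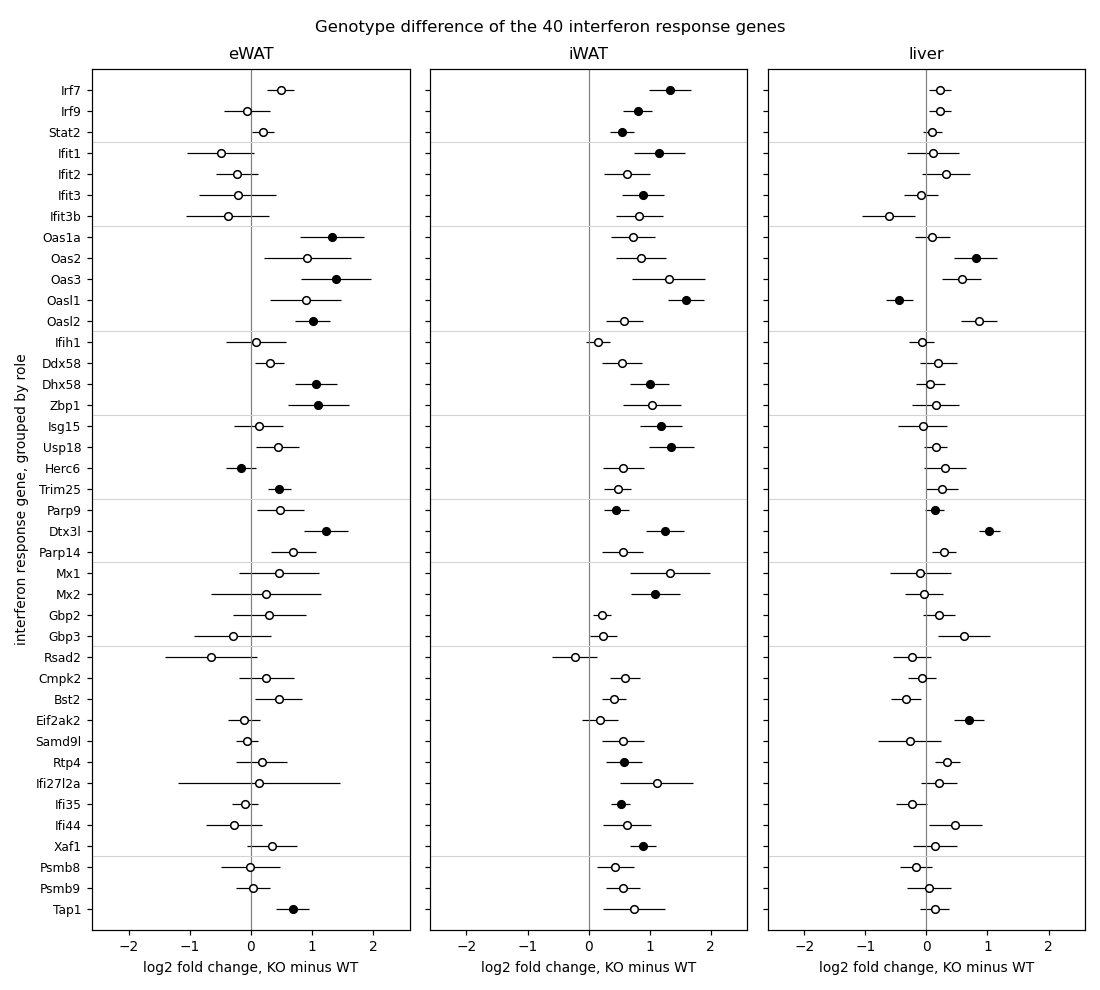
Log2 fold change of each of the 40 interferon response genes, KO minus WT, in eWAT, iWAT and liver (horizontal axis; bars are the standard error from edgeR, 3 libraries per group); grey lines separate the roles. Filled points are genes whose 3 KO libraries all lie on one side of all 3 WT libraries (CPM scaled within the tissue). They number 15 in iWAT, 9 in eWAT and 5 in liver.

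A simpler reading asks whether the 3 KO libraries all lie above the 3 WT libraries. That held for 15 members in iWAT, where 4.34% of all genes did so, for 8 in eWAT (7.46%) and for 4 in liver (5.98%). The opposite order was seen for Herc6 in eWAT (7.54% of all genes), for Oasl1 in liver (6.97%) and for no member in iWAT (5.03%). With scaling over all 18 libraries the order was lost for Stat2, Parp9, Dhx58 and Mx2 in iWAT, Parp9 in liver and Herc6 in eWAT. The counts therefore depend on the scaling. Dtx3l was the single member with all KO libraries above all WT libraries in every tissue, an order that 16 of the 11485 genes tested in all tissues shared (0.139%). A positive fold change in all 3 tissues was found for 20 of the 40 members, against 16.1% of all genes.

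**Figure D2:**
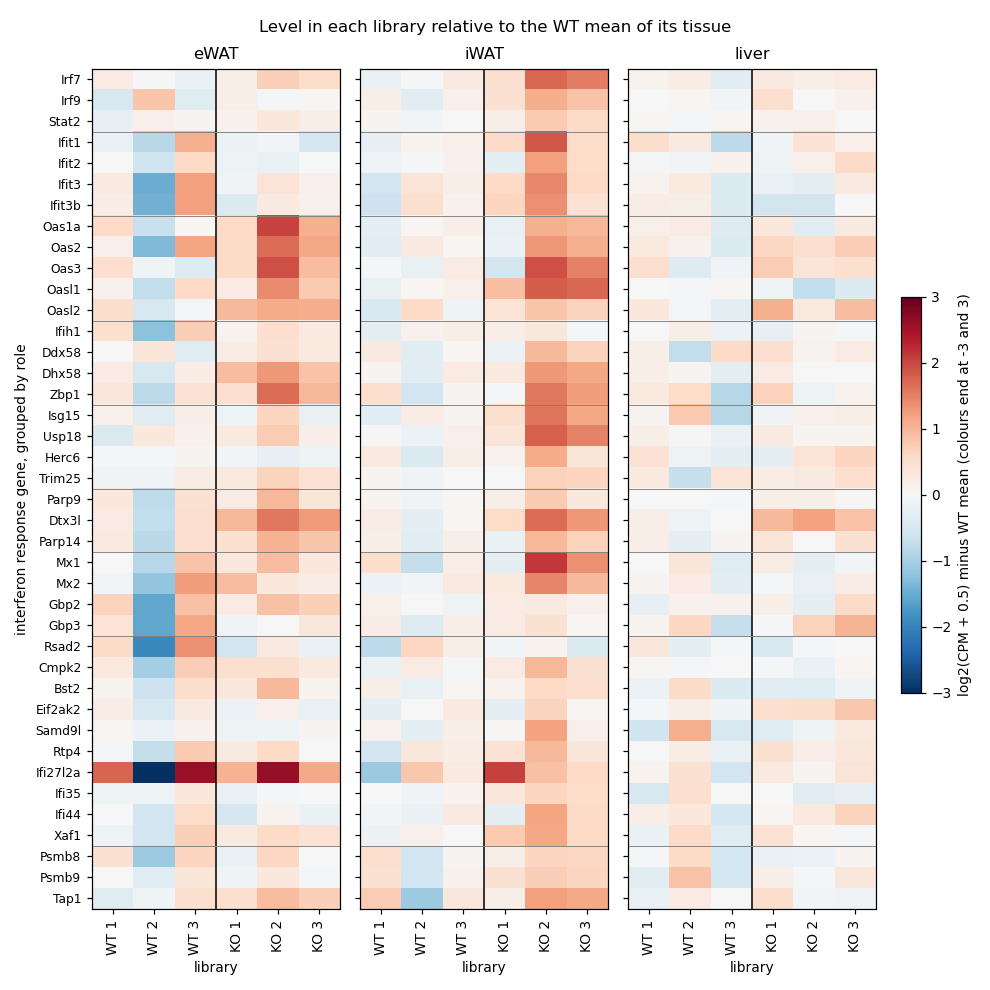
Level of each interferon response gene (rows, by role) in every library (columns), as log2(CPM + 0.5) minus the mean of the 3 WT libraries of that tissue; red is above and blue below the WT mean. KO 2 and KO 3 of iWAT are the reddest columns and WT 2 of eWAT the bluest.

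The libraries of a group were far from alike. In iWAT, KO 2 held the highest value of 38 of the 40 members and KO 1 had the lowest median level of the 3 KO libraries, while WT 1 and WT 2 held the lowest value of 16 and 19 members. Together the 40 genes took 0.184% to 0.207% of the counts in the WT libraries of iWAT and 0.325% to 0.425% in KO, and without the abundant Ifi27l2a 0.114% to 0.161% and 0.154% to 0.325%. The first pair of ranges does not overlap and the second does. Leaving out KO 2 of iWAT lowered the members' median to 0.49 with 38 of 40 positive, and leaving out KO 1 raised it to 0.90. Without WT 2, which lacks the B cell markers, all 40 were positive with a median of 0.70, and with a B cell score as a term in the fit, an alternative added after seeing the data, all 40 were positive with a median of 0.65. Other immune cell markers differed in both directions (CPM scaled over all 18 libraries). The 8 macrophage markers summed to 2555 to 2910 CPM in the WT libraries of iWAT and to 1285 to 1898 in KO. The 5 T cell markers summed to 5.85 to 255 CPM in WT (median 150) and to 107 to 381 in KO (median 311). The median of the B cell sums was 509 CPM in WT and 1064 in KO. The T cell and B cell ranges overlapped between genotypes. No list of cell markers was made a term apart from the B cell one, so the part of the others in the iWAT result was not tested, and in such bulk tissue fewer cells of a type and less RNA per cell cannot be told apart.

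In eWAT, WT 2, the library almost without adipocyte markers, held the lowest value of 31 members, KO 2 the highest of 20 and WT 3 the highest of 19. Leaving out WT 2 brought the number of positive members from 27 to 20 of 40 and the median to 0.04, below the 0.16 of all genes in that fit. Leaving out WT 3 raised it to 38 of 40 and a median of 0.62. The balance of the set in eWAT therefore rested on single WT libraries. Markers of other cells also differed between these libraries (CPM scaled over all 18 libraries). The 8 macrophage markers summed to 204 to 1059 CPM in WT and 967 to 1841 in KO, and the 5 T cell markers to 4.56 to 5.02 in WT and 5.65 to 10.3 in KO. The 4 smooth muscle markers summed to 195 to 557 CPM in WT, to 2246 and 2136 in KO 1 and KO 3 and to 117 in KO 2. The part of these cells in the eWAT values was not tested. In the deposited FPKM values of eWAT the median of all genes itself shifted to between 0.20 and 0.36, and the members' median lay 0.29 to 0.39 above it. In liver, WT 3 held the lowest value of 23 members, and without it 20 of 40 were positive with a median of 0.00.

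The factors that carry the signal were followed first. Irf7, the factor that amplifies interferon production, stood at 51.3, 57.1 and 72.5 CPM in the WT libraries 1 to 3 of iWAT and at 83.1, 199 and 175 in the KO libraries. All 3 KO values lay above all WT values, and the log2 fold change was 1.34 ± 0.35 (SE; 60.3 ± 11.0 against 152 ± 60.9 CPM, SD, n = 3). In eWAT it stood at 36.1, 29.2 and 26.4 CPM in WT and 34.3, 49.9 and 44.2 in KO, with overlapping groups. Liver Irf7 was at 35.9, 39.2 and 27.0 CPM in WT and at 40.8, 38.9 and 40 in KO, again overlapping. Irf9 and Stat2, the DNA-binding and the STAT part of ISGF3, were also apart in iWAT, with log2 fold changes of 0.81 and 0.55. Stat2 overlapped there with scaling over all 18 libraries. In eWAT Irf9 and Stat2 gave -0.06 and 0.20 and in liver 0.23 and 0.10, with overlapping groups. The edgeR adjusted p of every member in iWAT was 0.9997, so none of these differences passed the test.

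IFIT proteins bind the ends of foreign RNA and stop its translation. Ifit1 in iWAT read 7.28, 9.44 and 9.75 CPM in WT and 13.2, 32.9 and 13.1 in KO, so the groups were apart, and KO 2 was far above the rest (log2 fold change 1.16 ± 0.41). Ifit3 was apart there as well, at 0.89, while Ifit2 (0.63) and Ifit3b (0.83) overlapped. In eWAT Ifit1 was at 7.32, 4.65 and 18.8 CPM in WT and 7.66, 8.21 and 5.95 in KO. WT 3 alone was high, and the 4 genes had log2 fold changes of -0.50 to -0.21, a sign that turned positive for all 4 in the deposited FPKM values, where all genes shifted up too. Liver held little of these transcripts, with Ifit1 at 2.71, 2.21 and 0.80 CPM in WT and 1.58, 2.54 and 2.01 in KO. Of the 4 genes 2 had positive and 2 negative fold changes there, and Ifit2 was at 0.82 ± 0.10 CPM in WT and 1.04 ± 0.39 in KO.

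The OAS family makes the 2′-5′ oligoadenylates that activate RNase L, and the OASL genes are its relatives. All 5 members had positive fold changes in both fat depots, 0.90 to 1.39 in eWAT and 0.59 to 1.60 in iWAT. Single libraries moved these values. In eWAT Oas2 was 0.48 without WT 2 and 1.79 without WT 3, and without KO 2 Oas1a was 0.79, Oas3 0.83 and Oasl1 0.49. In iWAT Oasl2 was 0.37 without WT 1 and 0.94 without WT 2, and without KO 2 Oas2 was 0.56 and Oas3 0.83. All of these stayed positive. Oas1a in eWAT stood at 9.02, 3.52 and 6.15 CPM in WT and 9.07, 25.2 and 12.7 in KO, which are apart by a small margin (log2 fold change 1.33 ± 0.52, edgeR adjusted p = 0.634). Oasl2 in eWAT had 30.7, 15.2 and 20.3 CPM in WT and 42.4, 46.2 and 45.3 in KO. Its KO libraries agreed closely and all exceeded WT (1.01 ± 0.28, edgeR adjusted p = 0.634), the lowest p of any member in that depot. In iWAT Oasl2 read 24.9, 52.1 and 31.6 against 46.3, 61.8 and 54.9 CPM, with WT 2 inside the KO range. Liver Oasl2 was low, at 3.92, 2.96 and 2.44 CPM in WT and 7, 3.89 and 6.24 in KO, and overlapped by 1 library (0.86 ± 0.30, edgeR adjusted p = 0.624).

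Oasl1, which restrains the translation of Irf7, had the lowest p among the members in iWAT. It stood there at 5.45, 6.73 and 7.14 CPM in WT and 12.5, 23.7 and 22.4 in KO. Every KO library lay well above WT, and the log2 fold change was 1.60 ± 0.30, with a range of 1.43 to 1.86 when each library was left out in turn. DESeq2 called it (adjusted p = 0.00347) where edgeR did not. In liver the order was reversed, with 8.95, 8.89 and 9.35 CPM in WT and 8.19, 5.24 and 6.64 in KO (-0.44 ± 0.22, edgeR adjusted p = 0.818). eWAT Oasl1 overlapped, at 2.84, 1.31 and 4.10 against 3.11, 7.56 and 4.71 CPM. Oas2 was at 1.25, 1.05 and 0.56 CPM in WT liver and 1.68, 1.5 and 1.86 in KO, all KO above all WT at a low level (0.81 ± 0.36, edgeR adjusted p = 0.790). In eWAT its values were 5.57, 1.67 and 12.0 against 7.60, 17.1 and 11.8 CPM and in iWAT 11.6, 18.1 and 15.4 against 12.8, 37.3 and 31.6, overlapping in both.

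Cytosolic sensors start the pathway on the other side. Ddx58, which encodes RIG-I, overlapped between genotypes in every tissue. It read 35.3, 45.6 and 27.5 CPM in WT and 41.4, 49.0 and 43.7 in KO eWAT, and 71.3, 47.2 and 62.3 against 52.4, 116 and 94.8 in iWAT. In liver it was at 20.5, 10.7 and 27.3 against 25.8, 19.8 and 21.6 CPM, with WT 2 lowest. Dhx58 encodes LGP2, the helicase that tunes the other sensors, and it was apart in both depots. Its eWAT values were 6.50, 3.76 and 6.43 CPM in WT and 10.7, 14.1 and 10.1 in KO (1.06 ± 0.35, edgeR adjusted p = 0.634), and its iWAT values 11.5, 8.50 and 12.8 against 13.3, 27.4 and 24.8 (1.0 ± 0.32). In iWAT KO 1 exceeded the highest WT library only narrowly, and did not with scaling over all 18 libraries. In liver Dhx58 was 5.06 ± 0.93 and 5.31 ± 0.65 CPM. Ifih1, which encodes the sensor MDA5, had fold changes of 0.09, 0.16 and -0.08 in eWAT, iWAT and liver. Zbp1, a sensor of Z-form nucleic acid, was apart in eWAT (1.11) and overlapped in iWAT (1.03).

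Isg15 is the ubiquitin-like tag itself, Herc6 its ligase in mice, Usp18 the protease that removes it and also damps the receptor, and Trim25 a ubiquitin ligase that acts on RIG-I. Isg15 in iWAT had 5.29, 7.84 and 7.14 CPM in WT and 9.50, 21.3 and 15.5 in KO. Usp18 followed the same order there, with 16.8 ± 1.99 CPM in WT and 43.0 ± 19.2 in KO (1.35 ± 0.37), and both groups of values were apart for each gene (Isg15 1.19 ± 0.34). In eWAT Isg15 overlapped at 6.96, 4.77 and 7.29 against 5.58, 10 and 5.25 CPM. Liver Isg15 was most uneven within WT, at 3.87, 6.68 and 1.79 CPM, and even in KO, at 3.35, 4.08 and 4.23. Herc6 was lower in all 3 KO libraries of eWAT by a narrow margin (10.5 ± 0.60 against 9.41 ± 0.53 CPM) and Trim25 higher (50.5 ± 6.89 against 69.7 ± 8.92). With scaling over all 18 libraries the Herc6 groups overlapped.

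The ADP-ribosylation genes held the member with the lowest p of any tissue, Dtx3l in liver. Dtx3l encodes a ubiquitin ligase that pairs with PARP9, the product of its head-to-head neighbour. Its liver values were 33.1, 26.4 and 29.2 CPM in WT and 58.6, 68.4 and 54.0 in KO. The groups were far apart relative to their spread, 29.6 ± 3.37 against 60.3 ± 7.36 CPM (SD, n = 3), with a log2 fold change of 1.03 ± 0.17 (edgeR adjusted p = 0.146). DESeq2 called it (adjusted p = 0.000234), as did edgeR without WT 2 of liver (0.0461), and leaving out each library in turn moved the fold change between 0.94 and 1.12. In eWAT Dtx3l was at 24.6, 12.1 and 29.3 CPM in WT and 41.6, 62.3 and 50.5 in KO (1.23 ± 0.36, edgeR adjusted p = 0.634), and without WT 2, the library low in adipocyte markers, the fold change was 0.96. In iWAT it was at 52.3, 37.2 and 46.3 against 66.3, 144 and 112 CPM (1.25 ± 0.31). All KO libraries exceeded all WT libraries in each tissue, and KO 2 was highest in each.

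Parp9, the partner of Dtx3l, shares the start region and had smaller fold changes. Its values were 48.3, 22.6 and 53.5 CPM in WT and 46.5, 77.5 and 49.9 in KO eWAT, where the groups overlapped. In iWAT they were 56.6, 49.9 and 54.5 against 60.6, 93.1 and 67.2 CPM, and in liver 30.6, 30.9 and 29.8 against 34.4, 34.9 and 31.3. Both of the latter were apart, with log2 fold changes of 0.46 and 0.14. With scaling over all 18 libraries both overlapped. KO 1 of iWAT then stood at 41.3 CPM and WT 1 at 42.2, and KO 3 of liver at 57.6 and WT 1 at 58.9. Parp14, the large ADP-ribosyltransferase on the other side of Dtx3l, had fold changes of 0.70, 0.56 and 0.29 in eWAT, iWAT and liver with overlapping groups. The test of the difference between Dtx3l and its neighbours was not made.

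**Figure D3:**
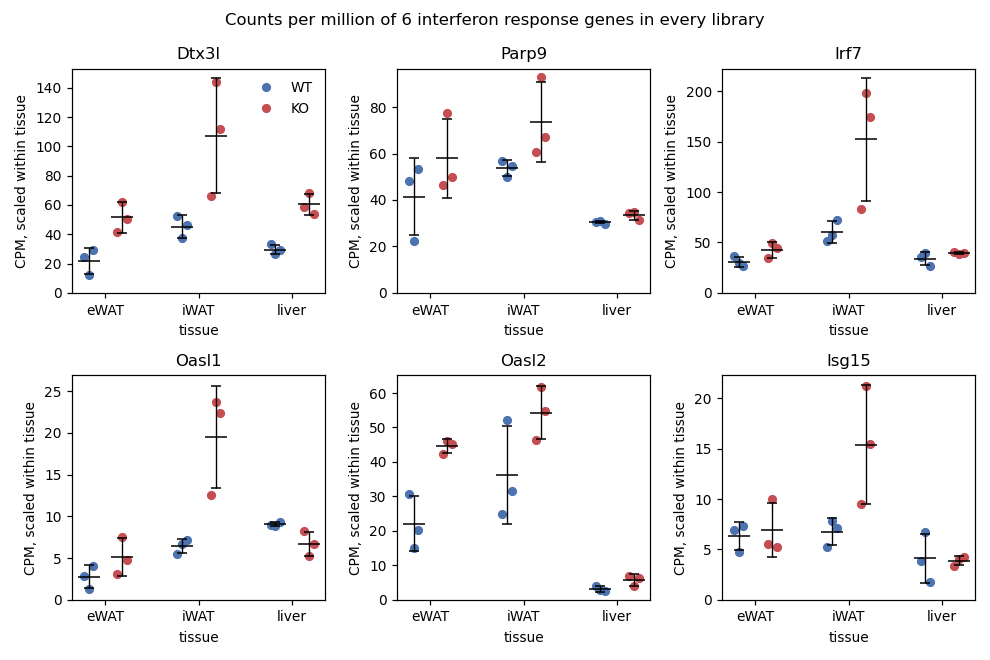
CPM scaled within each tissue for Dtx3l, Parp9, Irf7, Oasl1, Oasl2 and Isg15 in every library of eWAT, iWAT and liver (points; blue WT, red KO), with mean and SD of 3 libraries in black. The Dtx3l points of KO lie above those of WT in all 3 tissues, and Oasl1 is higher in KO iWAT and lower in KO liver.

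A fit of tissue plus genotype over all 18 libraries, added after seeing the data, asked for a genotype effect shared by the tissues. It treated the libraries as independent, although the labels leave unsaid whether libraries of one genotype and number in different tissues came from 1 mouse. It gave positive values for 39 of 40 members against 49.7% of 15717 genes, with a median of 0.35 against 0.00. Dtx3l was the only member past the threshold (1.16 ± 0.18, edgeR adjusted p = 0.0177), where 0.0318% of genes were called as higher and 0.0127% as lower, and 16 members had an unadjusted edgeR p under 0.05 (5.05% of genes). With the replicate number as a block the Dtx3l call was lost (edgeR adjusted p = 0.0545), and with libraries of one genotype and number taken as correlated (limma-voom, estimated correlation -0.041) it was kept (adjusted p = 0.0109). It was also lost narrowly without WT 1 of eWAT (0.0532), WT 2 of iWAT (0.0543) or WT 3 of iWAT (0.0687), with a fold change of 1.10 to 1.15 in each. Oasl2 came next (0.82 ± 0.18, edgeR adjusted p = 0.149), and DESeq2 called it besides Dtx3l.

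Large GTPases of the Mx and GBP families trap viral particles or attack membranes around intracellular microbes. Gbp2 overlapped between genotypes in each tissue. It was at 71.0, 14.5 and 81.8 CPM in WT eWAT and 52.1, 81.7 and 72.6 in KO, with WT 2 far below the rest, and at 98.4, 89.1 and 79.8 against 106, 108 and 97.0 in iWAT. Liver held 5.16, 6.80 and 6.86 against 7.15, 5.12 and 9.56 CPM. Mx2 was apart in iWAT (2.76 ± 0.55 against 5.91 ± 2.48 CPM, 1.09 ± 0.40), and Mx1 overlapped there with a fold change of 1.34 ± 0.65, KO 1 lying within WT. With scaling over all 18 libraries Mx2 overlapped there too. In liver Mx1 was near the limit of detection, at 0.59 ± 0.27 CPM in WT and 0.54 ± 0.18 in KO.

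Among the other effectors Xaf1, a pro-apoptotic zinc finger protein, had the second lowest p in iWAT, where it stood at 9.37, 11.8 and 10.7 CPM in WT and 18.6, 24.4 and 16.4 in KO. All KO libraries were higher, KO 1 included (0.89 ± 0.22). In eWAT it overlapped at 6.96, 5.13 and 13.2 against 9.49, 11.9 and 10.7 CPM, and in liver at 1.68, 3.25 and 1.46 against 2.91, 2.12 and 1.91. Bst2, the tetherin that holds budding virions, overlapped in each tissue. It read 19.5, 11.6 and 26.4 against 22.8, 36.3 and 19.8 CPM in eWAT and 51.7, 39.3 and 47.0 against 49.4, 69.2 and 65.0 in iWAT. Liver Bst2 was at 55.6, 93.9 and 47.5 against 50, 48.9 and 57.8 CPM, with WT 2 high.

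Eif2ak2 encodes PKR, the kinase that halts translation on double-stranded RNA. In liver it was at 2.54, 3.02 and 2.35 CPM in WT and 3.85, 4.01 and 4.98 in KO, apart but low (0.70 ± 0.24, edgeR adjusted p = 0.627). In eWAT it overlapped at 33.2, 20.2 and 34.8 against 25.3, 32.0 and 24.5 CPM, and in iWAT at 21.3, 25.5 and 30.8 against 21, 40.8 and 26.7. Rsad2, which makes a chain-terminating nucleotide, was the one member with a negative fold change in iWAT (-0.22 ± 0.37), and it was negative in eWAT (-0.66) and liver (-0.23) too, with overlapping groups in all 3. Rtp4 and Ifi35 were apart in iWAT, at 0.58 and 0.53. Cmpk2, Samd9l, Ifi44 and Ifi27l2a overlapped in every tissue.

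Antigen processing genes cut peptides in the immunoproteasome (Psmb8, Psmb9) and pump them into the endoplasmic reticulum (Tap1). Psmb8 overlapped between genotypes in each tissue. It was at 57.2, 19.2 and 66.0 CPM in WT and 35.9, 64.4 and 41.5 in KO eWAT, and at 169, 81.3 and 126 against 136, 189 and 186 in iWAT. Liver Psmb8 stood at 26, 40 and 18.4 against 23.1, 23.5 and 28.3 CPM. Tap1 was apart in eWAT by a narrow margin (30.1 ± 9.53 against 48.4 ± 7.51 CPM, 0.69 ± 0.27, edgeR adjusted p = 0.634) and overlapped elsewhere.

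Whether the genotype difference itself varied with the tissue was tested as an interaction. The comparisons share libraries, so they are given side by side. No member passed in any of the 3 (0% of genes called in either direction in each). For liver minus iWAT, 37 of 40 members had a smaller difference in liver, where 48.5% of all genes had a positive value, and the median was -0.61 against -0.02 over all genes. Oasl1 (-2.06 ± 0.40, edgeR adjusted p = 0.512, unadjusted p = 2.88e-04), Usp18 (-1.23) and Irf7 (-1.13) had the lowest p there, and DESeq2 called Oasl1 (adjusted p = 0.00447). For iWAT minus eWAT 28 of 40 were positive against 52.4% of all genes with a median of 0.39, led by Ifi35 (0.58), Ifit1 (1.61) and Isg15 (1.01), with edgeR adjusted p of at least 0.890. That median fell to 0.05 without WT 3 of eWAT. For liver minus eWAT the median was -0.16, led by Eif2ak2 (0.83), Dhx58 (-0.97) and Oasl1 (-1.30), and 0.08 without WT 2 of eWAT, and 12 of 40 were positive against 55.2% of all genes. At an unadjusted edgeR p under 0.05, liver minus iWAT held 6 lower members (2.21% of genes) and 0 higher (2.43%). In the same way iWAT minus eWAT held 2 higher (1.71%) and 0 lower (3.85%), and liver minus eWAT 1 higher (3.14%) and 2 lower (2.68%). DESeq2 called no member in the 2 interactions with eWAT.

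Levels across the tissues were compared in WT. On the authors' FPKM scale, which accounts for length, Ifi27l2a was the most abundant member in fat, at 1132 ± 577 in iWAT and 1145 ± 1027 in eWAT (mean and SD of 3 libraries), where WT 2 had the lowest value. Psmb8 (120 ± 51.3) and Bst2 (56.3 ± 11.9) followed in iWAT. In liver Bst2 led at 78.1 ± 20.3 FPKM, before Psmb8 (25.2 ± 6.77) and Irf7 (17.2 ± 2.58), while Mx1 (0.26), Ifit2 (0.27) and Ifi44 (0.28) were lowest. Dtx3l was at 3.58 ± 1.13 FPKM in eWAT, 8.38 ± 2.01 in iWAT and 5.47 ± 1.11 in liver.

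**Figure D4:**
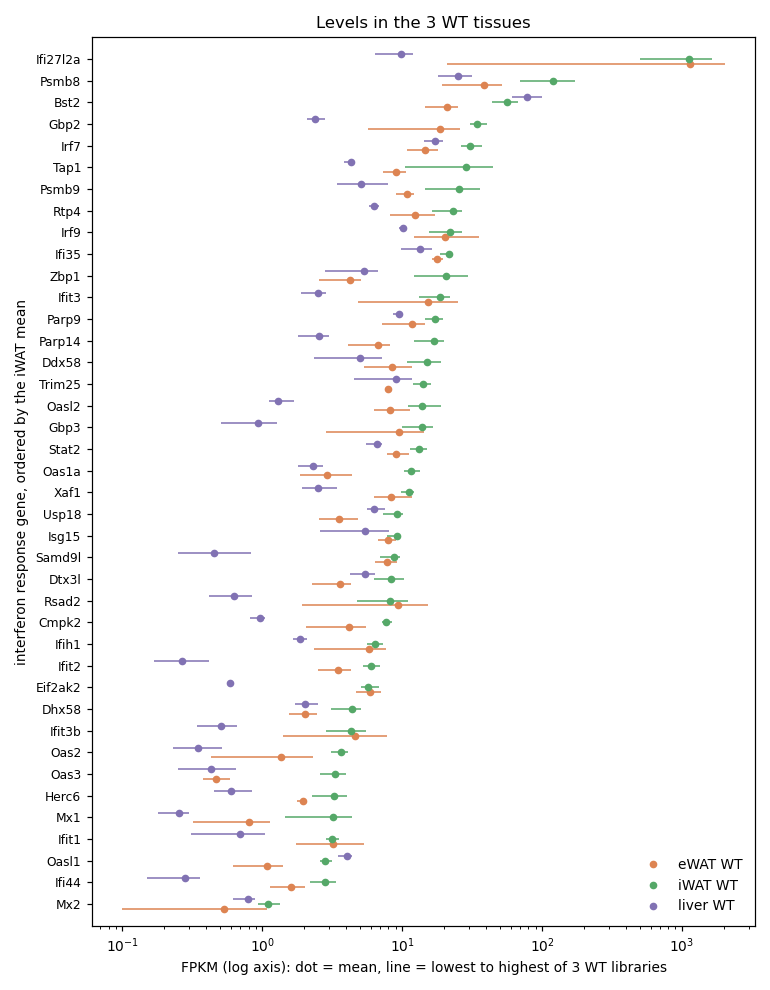
FPKM (log axis) of each interferon response gene in the WT libraries of eWAT (orange), iWAT (green) and liver (purple); dots are means and lines run from the lowest to the highest of 3 libraries. Ifi27l2a has a mean of 9.79 in liver and 1132 in iWAT, Bst2 and Oasl1 are highest in liver, and the long eWAT lines reach down to WT 2.

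In the edgeR test of CPM between WT tissues, 20 members were lower in liver than in iWAT (35.5% of 13647 genes) and 6 higher (27.2%). At an unadjusted edgeR p under 0.05, 8 members were higher (28.8% of genes) and 20 lower (37.8%). Of the 40, 13 had a positive difference against 44.7% of all genes, and the median was -0.89 against -0.22 over all genes. Ifit2 (-3.43 ± 0.26, edgeR adjusted p = 4.94e-05), Gbp2 (-2.46 ± 0.21, 8.46e-05) and Ifi27l2a (-5.49 ± 0.59, 2.39e-04) had the lowest p among the lower ones. The higher ones included Oasl1 (1.86 ± 0.23, edgeR adjusted p = 4.33e-04), Bst2 (1.88 ± 0.30, 0.00138) and Usp18 (0.83 ± 0.22, 0.0132). On the CPM scale the same gene set was thus unevenly placed. Ifit2, Rsad2, Samd9l and Gbp2 were lower in liver than in iWAT, and Usp18, Bst2 and Oasl1 higher. For some members the direction depended on the scale. In FPKM Usp18 was lower in WT liver (6.30 ± 1.06) than in WT iWAT (9.24 ± 1.64). Dtx3l was higher in liver by CPM (0.75) and lower in FPKM (5.47 against 8.38). Bst2 and Oasl1 were higher in liver on both scales. The test between tissues was made on CPM alone. Against eWAT 8 members were higher in liver (18.4% of 13352 genes) and 7 lower (24.3%), led by Bst2 (3.16 ± 0.42), Oasl1 (3.11 ± 0.45) and Usp18 (2.09 ± 0.32) among the higher and Eif2ak2 (-2.09 ± 0.30), Ifit2 (-2.80 ± 0.41) and Samd9l (-2.62 ± 0.57) among the lower. The median there was 0.21 against -0.15 over all genes, and with upper quartile scaling -0.11 against -0.48. Those counts of 8 and 7, which make 15, became 24 in all without WT 2 of eWAT, a fit whose share of all genes called is not given here. Between the fat depots 34 of 40 members were higher in iWAT than in eWAT (45.6% of 14006 genes), led by Oas3 (2.97 ± 0.40), Oas1a (1.87 ± 0.39) and Zbp1 (2.17 ± 0.48), and none passed in edgeR (0% called, adjusted p of at least 0.25), with 16 at an unadjusted p under 0.05 (8.9% of genes) and 7 called by DESeq2. Without WT 2 of eWAT 31 of 40 were higher, with a median of 0.50 in place of 0.70. Immune cell markers differed between the depots as well. In the WT libraries the B cell markers summed to 5.40 to 1227 CPM in iWAT and 2.11 to 4.27 in eWAT, the T cell markers to 5.85 to 255 and 4.56 to 5.02, and the macrophage markers to 2555 to 2910 and 204 to 1059. Their part in the depot difference was not tested. On the lower side Rsad2 (-0.39) and Ifit3b turned positive without WT 3 of eWAT.

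Liver libraries also held reads of Adipoq, a gene of fat cells, at 5.06 to 8.46 CPM in 5 of them and at 0.996 in KO 2 (scaled over all 18 libraries). Ifi27l2a, so abundant in fat, stood at 2.91 to 6.51 CPM in the 6, with 4.85 in KO 2 (scaled within liver). The 5 liver libraries with more Adipoq also held the epididymis gene Gpx5 at 26.6 to 34.8 CPM, and KO 2 held 0 (scaled over all 18 libraries). In iWAT Gpx5 stood at 0.09 CPM in WT 2, 0.13 in KO 1 and 13.3 to 23.6 in the others. It was at 31072 CPM in eWAT WT 2. The source of these reads was not tested, nor was the part of RNA from other tissues in the low liver values.

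The rest of the pathway was read from lists of named genes, also drawn up with earlier results of these data known. Over all genes tested, 52% had a positive fold change in iWAT, 48.5% in eWAT and 49.7% in liver. Fits without WT 2 of eWAT are not given for the genes of these lists. Of 21 interferon genes (Ifna, Ifnb1, Ifng and others) none passed the filter in any tissue. Ifng, the type II interferon, was the highest of them at 0.79 CPM in KO 2 of iWAT, and 18 to 20 of the 21 had no read in a tissue, so their transcripts were not detectable at this depth. Receptors and their kinases were mixed, with 4 of 9 positive in iWAT (median -0.04) and 6 of 9 in eWAT (0.19). In liver Ifngr2, a chain of the interferon gamma receptor, was apart, at 13.3, 10.5 and 15.5 CPM in WT and 23, 16.1 and 18.8 in KO (0.56, edgeR adjusted p = 0.719).

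Other STAT and IRF factors were positive for 7 of 7 genes in iWAT (median 0.27), led by Irf1 (0.58), for 5 of 7 in eWAT (median 0.68) and for 1 of 7 in liver (median -0.10). Irf2 (0.68), Stat3 (0.69) and Irf5 (1.41) each had an unadjusted edgeR p under 0.05 in eWAT, where 3.4% of all genes were higher at that threshold. Of 36 further antiviral genes 30 were positive in iWAT (median 0.44), 28 in eWAT (median 0.45) and 22 of the 34 tested in liver (median 0.09). Rnf213 (0.69) and Pml (0.47) led in eWAT, Oas1b (1.19) and Lgals9 (0.42) in iWAT, and Slfn5 (0.75) and Sp110 (0.70) in liver. The 16 GTPases and chemokines that answer mainly to interferon gamma were all positive in iWAT (median 0.64), with Gbp6 (0.77) and Irgm1 (0.65) in front, against 10 of 16 in eWAT (0.05) and 13 of 16 in liver (0.27). None of these genes passed the edgeR threshold in any tissue.

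The antigen presentation genes differed in direction between fat and liver without a test of that difference. MHC class I genes were positive for 14 of 15 in iWAT (median 0.33), led by H2-T22 (0.58) and H2-T23 (0.47). In eWAT 10 of 15 were positive (median 0.23) and in liver 5 of 15 (median -0.29). MHC class II genes were positive for 7 of 7 in both fat depots and for 1 of 7 in liver (median -0.33). Cd74, the class II invariant chain, was at 462 CPM in WT 2 of iWAT, which lacks the B cell markers, and at 1288 to 2536 in the other 5, and the part of B cells in this list was not tested. Of the negative regulators 7 of 8 were positive in iWAT (median 0.21), 5 of 8 in eWAT (0.26) and 3 of 7 in liver (-0.01). Socs3, which blocks JAK kinases, was lower in all 3 KO libraries of liver, at 9.77, 11.7 and 9.63 CPM in WT and 5.92, 4.16 and 6.90 in KO (-0.88, edgeR adjusted p = 0.488). Ikbke, a kinase that activates interferon regulatory factors, was lower there as well, at 16.1, 16.4 and 20.6 against 10.9, 11.3 and 11.3 CPM (-0.66, edgeR adjusted p = 0.506). Of the upstream sensors and adaptors 10 of 12 were positive in iWAT (median 0.12), 7 of 12 in eWAT (0.32) and 6 of 11 in liver (0.08).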

How the data were processed

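The 18 libraries were made from mRNA enriched with oligo(dT) beads and read on an Illumina NovaSeq, per the labels' protocols. The submitters' processing notes list build mm10 and the tools RSEM, edgeR, DESeq2, StringTie 1.3.1, HISAT2, Bowtie2 2.2.8 and fastp 0.18.0, with no role given for any. The authors deposited expected counts per gene, estimates of which 8.57% were not whole, and FPKM values, which are scaled by gene length and depth. Of 22298 identifiers 22255 matched GENCODE M21.

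Expected counts were rounded, filtered with edgeR's filterByExpr (minimum count 10, total 15), scaled by TMM and tested with edgeR 4.0.16 (glmQLFit robust, glmQLFTest) in R 4.3.3, on all genes, adjusted by Benjamini-Hochberg and called under 0.05. Genotype was tested within each tissue, tissue within WT, and their interaction per pair of tissues. Standard errors were derived from each fold change and its F statistic. Alternatives were other scalings, no filter, DESeq2 1.42.0, limma-voom and FPKM fits with limma 3.58.1, all libraries in one fit, a replicate block and leaving out libraries. The genotype fit was tried on simulated counts with the same dispersion for every gene and no library unlike its group. It therefore does not show how the fit behaves on libraries as uneven as these. Replicate libraries differed by more than counting noise.

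The members, role groups and pathway lists were chosen with earlier results of these data known. Named with values in every library were 1 member per role (Irf7, Ifit1, Oas2, Ddx58, Isg15, Parp9, Gbp2, Bst2, Psmb8), any member past the threshold, and the 4 of lowest p per tissue. For differences the 3 of lowest p were named, and for tissues 3 per direction. Up to 2 genes per pathway list were named. Irf5, Cd74 and the further member values (such as those of groups that were apart) were chosen after their values were seen.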

Additional observations from a re-analysis of the deposited data

Results flagged for a closer look

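Oasl1 had fold changes of opposite sign in iWAT and liver, neither past the edgeR threshold (adjusted p = 0.9997 in iWAT and 0.818 in liver). Its log2 fold change was 1.60 in iWAT, with all 3 KO libraries above all 3 WT libraries, and -0.44 in liver, with all 3 KO libraries below all 3 WT libraries. The difference between the tissues was -2.06 ± 0.40 (SE; edgeR adjusted p = 0.512, DESeq2 adjusted p = 0.00447).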

How the results depend on the processing

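Of 1066 values of named members under the alternatives, 36 had another direction than reported, 10 newly passed the threshold and 6 no longer did. The cause was not tested for any of them.

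DESeq2 called 1 member in iWAT, 1 in liver, 1 for liver minus iWAT, 7 for WT iWAT minus eWAT and 2 for the effect shared by the tissues. Leaving out 1 library at a time gave 0 to 1 called members in liver (1 without WT 2), 0 to 1 for WT iWAT minus eWAT (Oas3 without WT 2 of iWAT), 7 to 24 for WT liver minus eWAT and 0 to 1 for the shared effect. It gave medians of 0.49 to 0.90 in iWAT. The shares of all genes called by DESeq2, in the left-out fits and with the replicate block are not given here. Counts of called members from those fits therefore cannot be weighed.

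Libraries of WT and KO with the same number had deviations that correlated between -0.76 and 0.21. Those with different numbers gave -0.56 to 0.74. Deviations from means of 3 libraries cannot show whether the numbers pair the libraries, and the labels do not say. With the replicate number as a block, 1 member (Dtx3l) was called in liver and 0 for the shared effect, and the fold changes of Psmb8 in eWAT and Isg15 in liver became 0.092 and 0.045.

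In eWAT, Ifit1 ranged from -0.81 to 0.34 without 1 library and was 0.038, 0.077 and 0.038 in the FPKM fits. Isg15 ranged from -0.24 to 0.29, Gbp2 from -0.13 to 0.74 and Psmb8 from -0.36 to 0.36. Psmb8 was 0.13 by limma-voom, 0.0065 with all 18 libraries, 0.057 without the 3 libraries rich in Crisp1 (WT 2, KO 1 and KO 3) and 0.47, 0.48 and 0.47 in FPKM. In liver, leaving out 1 library gave -0.26 to 0.49 for Ifit1, -0.091 to 0.52 for Ddx58, -0.42 to 0.45 for Isg15, -0.033 to 0.42 for Gbp2, -0.51 to 0.017 for Bst2 and -0.40 to 0.17 for Psmb8. Isg15 was 0.14 by limma-voom and 0.16, 0.21 and 0.16 in FPKM, and Psmb8 was 0.037, 0.040 and 0.037 in FPKM. For WT iWAT minus eWAT, leaving out 1 library gave -0.89 to 0.35 for Rsad2 and -0.76 to 0.49 for Ifit3b.

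With 3 libraries per group, few reads for IFIT and Mx genes in liver, and eWAT WT 2 unlike its group, small differences could not be detected.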

Other observations

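The members varied more between libraries than other genes did in some groups. In KO iWAT the median SD of log2 levels over the 3 libraries was 0.51 for the members and 0.32 for all genes, and Oas3 had the widest spread (1.33). In WT eWAT it was 0.66 against 0.55, and in WT iWAT 0.26 against 0.33.

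Among the 30 members with a promoter entry, those with the ISRE pattern in the window did not have larger fold changes than those without it. The medians were 0.11 and 0.15 in eWAT, 0.55 and 0.61 in iWAT and 0.10 and 0.19 in liver, over 14 members with and 16 without a match, as a description with no test. The 10 members with no promoter entry had medians of 0.474 in eWAT, 1.015 in iWAT and 0.150 in liver. Whether they carry the pattern was not searched.

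Ifi27l2a and the adipocyte gene Adipoq shared an extreme library in each fat depot, but not their order in the other libraries. In eWAT Adipoq was at 12.1 CPM in WT 2, where Ifi27l2a had 9.72, and in iWAT KO 1 held the highest value of both, 2228 for Adipoq (scaled over 18 libraries) and 2006 for Ifi27l2a (scaled within iWAT). Other libraries went the other way (scaled over 18 libraries). In eWAT WT 1 held more Adipoq than KO 2 (2140 against 1667 CPM) and less Ifi27l2a (501 against 904). KO 2 and KO 3 of iWAT held less Adipoq than WT 3 (876 and 886 against 1235) and more Ifi27l2a (671 and 557 against 437). The part of adipocyte content in Ifi27l2a was not tested.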
